A study of Mus musculus with 34 samples.

Results

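The neurotrophins, their receptors and insulin-like growth factor 1 were described as a set of 9 genes, out of 23951 genes with an FPKM value in each library. The members were Bdnf, Ntf3, Ntrk2, Ntrk3, Ngfr, Vgf, Sort1, Igf1 and Igf1r. Membership was set by gene symbol, and all 9 were found. FPKM is the number of fragments of a gene divided by the length of its transcript and by the size of the library.

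Neurotrophins are secreted growth factors that keep neurons alive and shape their synapses. Each is made as a proneurotrophin and cut to its mature form, which binds a tyrosine kinase receptor of the Trk family, whereas the uncut form binds p75NTR together with sortilin. Insulin-like growth factor 1 acts through a tyrosine kinase receptor of its own, and microglia are among the brain cells that make it.

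RNA of the hippocampus was sequenced from 4 control, 5 Hdac1 cKO, 6 5XFAD and 5 compound mice, 1 library per mouse. RNA of GFAP+ nuclei, sorted from the cortex to enrich astrocytes, was analysed in 3 control and 4 Hdac1 cKO samples. Another listed control sample had no FPKM values at hand and was not analysed. Every mouse carried the floxed Hdac1 alleles (Hdac1f/f). Control mice carried only these. The Hdac1 cKO mice also carried Nestin-Cre, the 5XFAD mice carried the 5XFAD transgenes (driven by the neuronal Thy1 promoter), and the compound mice (Hdac1 cKO; 5XFAD) carried both. The mice were 13 months old, with 13 to 14 months on the labels of the control and Hdac1 cKO hippocampi. Nestin-Cre acts in the precursors of neurons and astrocytes and not in microglia, so cells that kept Hdac1 remained in every cKO sample. No group carried Nestin-Cre without the floxed alleles, so loss of Hdac1 and presence of Cre cannot be told apart. The sources used here do not say whether the hippocampi with and without 5XFAD were prepared together.

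Depth and labels were checked first. Relative depth, read from the smallest steps between FPKM values, ranged from 0.754 to 2.35 over the 20 hippocampal libraries and from 0.869 to 1.26 over the 7 libraries of GFAP+ nuclei. Hdac1 was at 5.91 to 10.7 FPKM in control and 6.10 to 9.64 FPKM in 5XFAD hippocampi, against 2.36 to 3.03 FPKM in Hdac1 cKO and 1.15 to 2.52 FPKM in compound hippocampi, with no overlap. In GFAP+ nuclei the groups overlapped, with 9.91 to 22.3 FPKM in control and 5.80 to 11.5 FPKM in Hdac1 cKO samples. Neuronal and astrocytic markers were present in every hippocampal library, and the 6 astrocyte markers summed to between 2058 and 2401 FPKM in the GFAP+ nuclei against 159.8 to 233.6 FPKM for the 6 neuronal markers. Other cells were present in that sort, with sums of 450 to 1223 FPKM for the oligodendrocyte and 184.7 to 299 FPKM for the mural cell markers. Markers of the choroid plexus, a tissue next to the hippocampus, differed widely between hippocampal libraries and summed to between 56.4 and 20350 FPKM. Their values are given beside the genes they moved with.

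The members lie on 9 separate gene loci. In mm9, the build of the deposited values, Bdnf lies at chr2:109514857-109567204 on the plus strand, Ntf3 at chr6:126051431-126116762 on the minus strand, and Vgf at chr5:137506165-137509221 on the plus strand. The Trk receptor genes lie at chr13:58907957-59235331 on the plus strand (Ntrk2) and chr7:85337248-85723294 on the minus strand (Ntrk3). Ngfr lies at chr11:95430132-95449049 on the minus strand and Sort1 at chr3:108087009-108164429 on the plus strand, where the annotation also places the non-coding gene Gm12523 on the other strand. Igf1 lies at chr10:87321010-87399792 on the plus strand, over the non-coding gene Gm16176 on the other strand, and Igf1r at chr7:75097713-75371484 on the plus strand. Whether the fragments of Sort1 and Igf1 were counted by strand is not given in the sources used here.

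The study asked about guanine-rich promoters, so the promoters of the members were read for the GC box, the site of the SP and KLF transcription factors. RefSeq promoters of GRCm38.p6, from 250 bases before to 50 bases after a start, were at hand for 6 of the 9 members, with 13 starts in all, 7 of them for Bdnf. Ntrk3, Vgf and Sort1 had no entry. The core GGGCGG, on either strand, was in 7 of these 13 promoters and in 35.7% of all 32851 promoters. The longer form GGGGCGGGG, which contains the core, was in 2 of the 13, both of Bdnf, and in 11.4% of all. The single Igf1 promoter held neither. The GC content was 52.3% for Igf1 and 76.0% for Igf1r, against a median of 52.7% over all promoters. The 250 bases before the start are shown for Igf1, the member that rose, for its receptor gene, for the upstream Ntf3 start, and for the Bdnf starts with the longer GC box. Each reads toward the start, and capitals mark GGGCGG or its reverse complement CCGCCC. A match describes the letters only and is no measured binding site.
Igf1, chr10:87860861-87861110, plus strand: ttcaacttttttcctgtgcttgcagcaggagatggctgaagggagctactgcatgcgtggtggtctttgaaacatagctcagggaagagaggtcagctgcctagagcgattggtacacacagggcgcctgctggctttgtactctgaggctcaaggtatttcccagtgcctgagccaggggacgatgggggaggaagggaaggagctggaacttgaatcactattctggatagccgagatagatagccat
Igf1r, chr7:67952007-67952256, plus strand: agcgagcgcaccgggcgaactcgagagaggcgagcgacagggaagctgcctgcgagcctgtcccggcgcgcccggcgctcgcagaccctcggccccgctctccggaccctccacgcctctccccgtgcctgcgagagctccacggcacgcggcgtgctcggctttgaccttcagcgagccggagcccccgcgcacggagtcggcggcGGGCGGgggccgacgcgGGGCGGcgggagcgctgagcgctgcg
Ntf3, chr6:126166745-126166994, minus strand: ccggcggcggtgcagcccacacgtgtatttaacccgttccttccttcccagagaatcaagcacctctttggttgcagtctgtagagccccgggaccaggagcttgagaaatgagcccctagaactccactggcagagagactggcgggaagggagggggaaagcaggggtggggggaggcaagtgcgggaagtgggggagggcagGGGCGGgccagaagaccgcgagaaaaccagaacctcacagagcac
Bdnf, upstream start with the longer box, chr2:109676782-109677031, plus strand: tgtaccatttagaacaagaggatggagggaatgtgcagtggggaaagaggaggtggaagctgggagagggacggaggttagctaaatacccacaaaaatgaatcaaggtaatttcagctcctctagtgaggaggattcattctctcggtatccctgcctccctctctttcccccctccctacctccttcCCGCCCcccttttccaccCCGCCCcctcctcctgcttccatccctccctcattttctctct
Bdnf, downstream start with the longer box, chr2:109692777-109693026, plus strand: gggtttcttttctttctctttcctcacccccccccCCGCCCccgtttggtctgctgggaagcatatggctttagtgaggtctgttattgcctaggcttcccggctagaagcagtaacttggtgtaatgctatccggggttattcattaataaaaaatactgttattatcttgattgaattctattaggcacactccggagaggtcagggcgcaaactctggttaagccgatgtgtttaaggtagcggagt

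In control hippocampus the members covered a wide range of levels. Ntrk2, the receptor of BDNF, was highest at 40.8 FPKM ± 2.61 (SD, n = 4). Ntrk3, the receptor of neurotrophin-3, was at 35.3 ± 1.5, and Sort1, which encodes sortilin, at 35.1 ± 2.98. These 2 did not differ beyond their spread. Bdnf followed at 22.5 ± 1.41, Vgf, a neuropeptide precursor induced by neurotrophins, at 17.0 ± 1.02, and Ntf3, which encodes neurotrophin-3, at 9.69 ± 2.31. Igf1r was at 4.34 ± 0.588, Igf1 at 2.14 ± 0.659 and Ngfr, which encodes p75NTR, at 0.165 ± 0.168. Apart from Ntrk3 and Sort1, neighbours in this order did not overlap in the control mice. FPKM is scaled to transcript length, although these libraries hold only the 3′ ends of transcripts, so the order between genes is approximate.

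**Figure D1:**
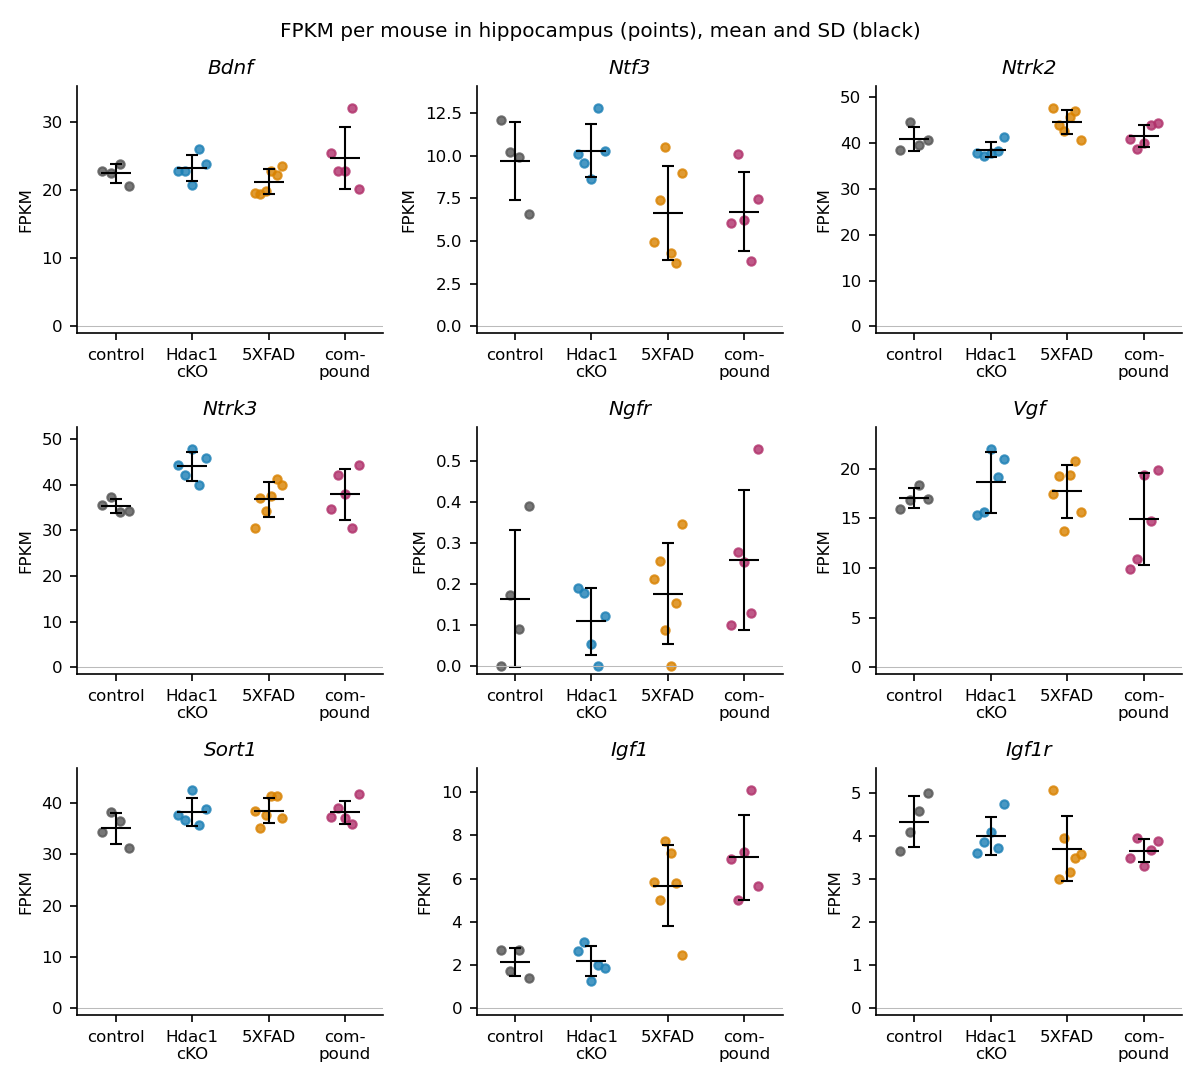
FPKM (y axis) of the 9 members in each hippocampus by group (x axis), with 1 point per mouse and the mean and SD in black. Igf1 is at 1.29 to 3.07 in the mice without 5XFAD and at 2.47 to 10.1 in those with it, while Bdnf, Ntrk2, Sort1 and Igf1r overlap across all groups.

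Igf1, the growth factor, was the member that differed most between groups. The control hippocampi were at 2.71, 1.74, 2.68 and 1.42 FPKM. The Hdac1 cKO hippocampi were at 2.65, 3.07, 1.29, 2.01 and 1.87 FPKM, within or close to the control range. In 5XFAD mice the values were lowest at 2.47, with a median of 5.83 and a highest value of 7.73 FPKM. The compound mice had 6.89, 5.02, 7.23, 10.1 and 5.64 FPKM. All 5 compound mice and 5 of the 6 5XFAD mice were above every mouse without 5XFAD, and 5XFAD mouse 6 (2.47 FPKM) fell among the controls.

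Igf1 rose in compound mice against control by 1.34 on the log2(FPKM + 1) scale (SE 0.21, 95% interval 0.89 to 1.79, adjusted p = 0.0118), a ratio of means of 3.26. It rose in compound against Hdac1 cKO mice by 1.32 (SE 0.19, 0.91 to 1.74, adjusted p = 0.00239), a ratio of 3.21. In both comparisons the groups did not overlap, and the two-sided exact permutation test gave the smallest p it can, 0.0159 and 0.00794. Groups were apart in this direction for 2.75% of all genes tested in the first comparison and 2.44% in the second. In 5XFAD against control mice Igf1 was higher by 1.06 (SE 0.24, 0.54 to 1.57), a ratio of 2.66, with an adjusted p = 0.0694, an unadjusted p of 0.00066 and an exact permutation p = 0.0286. This passed the thresholds of the study for a differentially expressed gene (DEG), an unadjusted p under 0.05 together with a 1.5-fold change or more, but not the adjusted threshold. The call in compound against control mice was lost without control mouse 4 (adjusted p = 0.0502) and with the choroid plexus score as a covariate (1.27, adjusted p = 0.205). The one in 5XFAD against control mice was gained without 5XFAD mouse 6 (0.00497) and with all 4 hippocampal groups in 1 fit (0.0242). With the replicate numbers as a block the former was lost (1.4, adjusted p = 0.0761) and the latter gained (1.26, 0.0481). The numbers do not pair the mice. With the choroid plexus covariate, the calls over all genes in compound against control mice went from 95 to 26. The score averaged 4.823 (SD 1.665) in control and 2.138 (SD 1.658) in compound mice, so it was partly tied to the group.

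Loss of Hdac1 went with no detected difference of Igf1 on either background. Hdac1 cKO against control differed by 0.01 (95% interval -0.43 to 0.46, adjusted p = 0.989), and compound against 5XFAD by 0.28 (-0.20 to 0.76, adjusted p = 0.812). The interaction, which asks whether the effect of Hdac1 loss differs between the backgrounds, was 0.27 (-0.40 to 0.94, adjusted p = 0.822). These intervals still allow changes of moderate size in either direction.

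**Figure D2:**
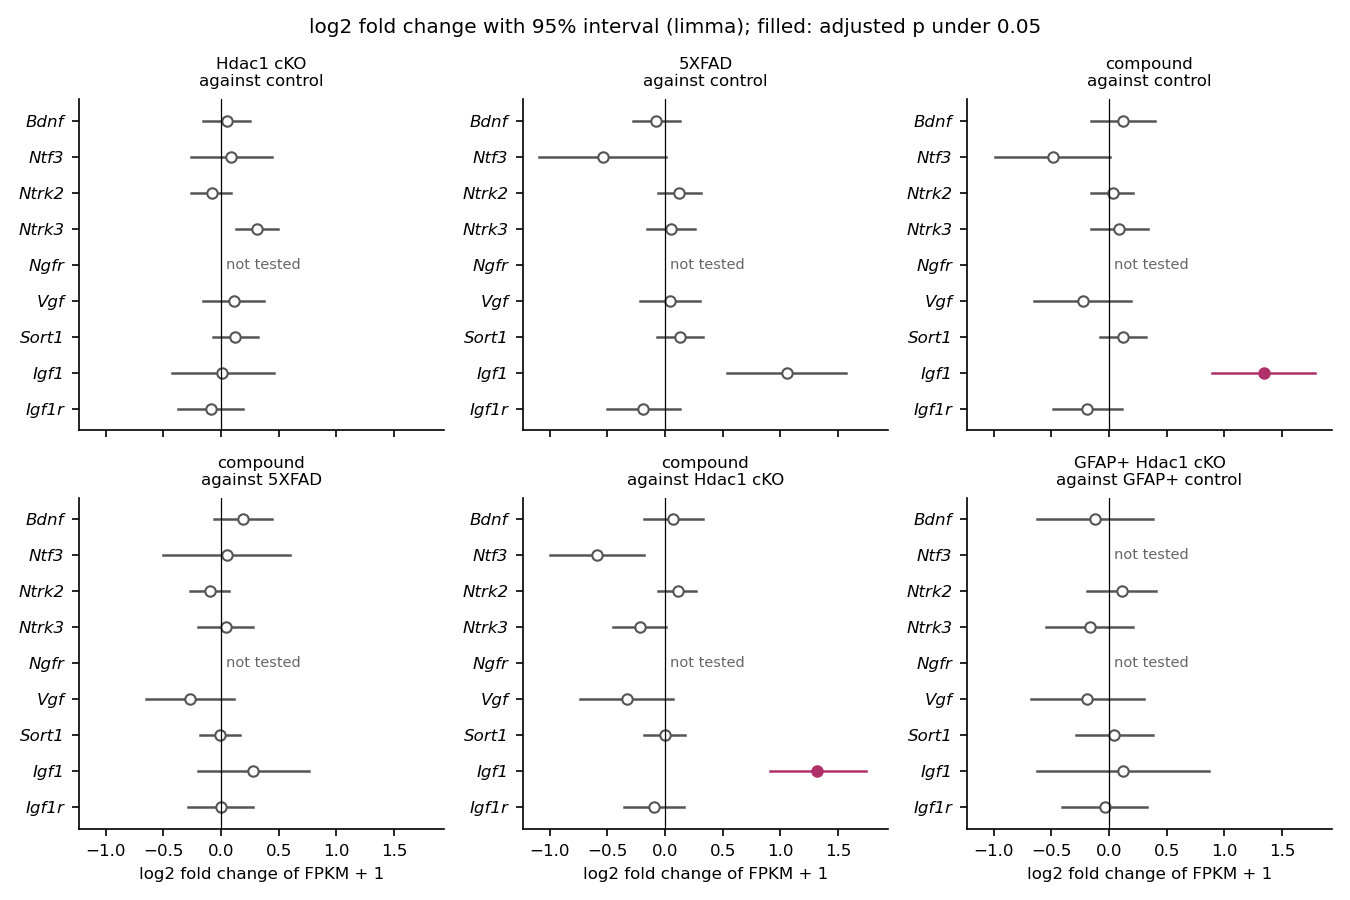
log2 fold change of FPKM + 1 (x axis) of each member (y axis) in the 6 comparisons, with the 95% interval of limma, filled where the adjusted p is under 0.05. Igf1 is filled in compound against control and compound against Hdac1 cKO; Ngfr in every panel and Ntf3 in the GFAP+ nuclei were below the filter.

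Microglial markers moved with Igf1. The summed FPKM of 7 of them (Cx3cr1, P2ry12, Tmem119, Csf1r, Aif1, Itgam and C1qa) ranged from 91.6 to 121.7 in control, 102.7 to 120.3 in Hdac1 cKO, 177.5 to 240.3 in 5XFAD and 188.2 to 350.2 in compound hippocampi. Of these markers 3 (Cx3cr1, Csf1r and C1qa) rose in 5XFAD against control, in compound against control and in compound against Hdac1 cKO mice. The shares of all genes called were 0.708%, 0.662% and 1.49% in this order. The median log2 difference of the 7 markers was 0.733, 1.03 and 1.01. The lowest values were 0.0873 (P2ry12), 0.416 (Tmem119) and 0.223 (Tmem119), so the markers did not move evenly. None of the 7 was at 0 throughout a group. The sum was 1.94 times the control mean in 5XFAD and 2.37 times in compound mice, beside 2.66 and 3.26 times for Igf1. A second list, of 7 markers of amyloid-associated microglia (Cst7, Itgax, Clec7a, Lpl, Tyrobp, Axl and Spp1), moved more. Its sum ranged from 157.9 to 181 FPKM in control, 160 to 219.2 in Hdac1 cKO, 488.1 to 853.2 in 5XFAD and 779 to 1735 in compound mice. Of these 7 markers 4 rose in 5XFAD against control, 4 in compound against control and 6 in compound against Hdac1 cKO mice. The shares over all genes are those given above. Their median log2 difference was 1.45, 2.23 and 2.4, and the lowest was 0.478, 0.625 and 0.656, each of Axl. More cells of a type and more RNA per cell cannot be told apart in bulk tissue.

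Igf1 was also read relative to the sum of the first microglial list (Cx3cr1 to C1qa). It amounted to 2.00% ± 0.488 (SD, n = 4) of the sum in control, 1.97% ± 0.649 (n = 5) in Hdac1 cKO, 2.75% ± 0.798 (n = 6) in 5XFAD and 2.83% ± 0.584 (n = 5) in compound mice. The lowest share with 5XFAD was 1.32%, in 5XFAD mouse 6, and the highest without it was 2.85%, in Hdac1 cKO mouse 2. The share differed between 5XFAD and control mice with an exact permutation p = 0.19, between compound and control mice with p = 0.0794, and between compound and Hdac1 cKO mice with p = 0.0556. The mean share was higher with 5XFAD, but none of these differences passed 0.05, which does not show that the shares are equal. The median sum of the amyloid-associated list was 165 FPKM in control, 178.4 in Hdac1 cKO, 745.7 in 5XFAD and 905.7 in compound mice. That difference was larger than the one of Igf1, so the higher share holds for the first list only. Compound mouse 4 had both the highest Igf1 value and the highest microglial sum. The part of microglial abundance in the rise of Igf1 was not tested.

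**Figure D3:**
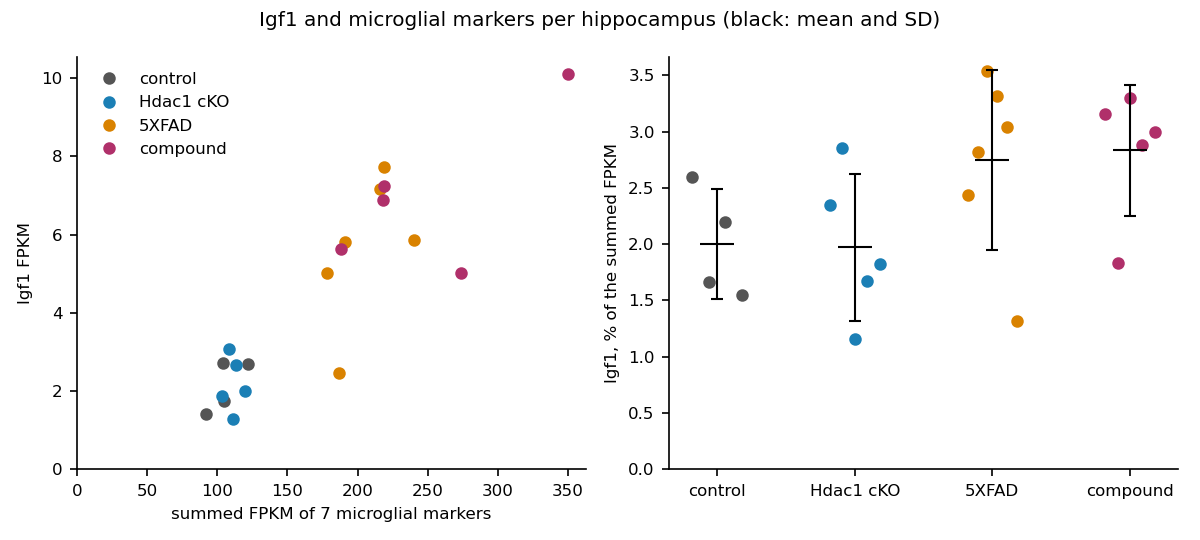
Left, Igf1 FPKM (y axis) against the summed FPKM of 7 microglial markers (x axis), 1 point per hippocampus, coloured by group. Right, Igf1 as a percentage of that sum per mouse, with the mean and SD in black. On the left the marker sum separates the mice with 5XFAD from those without; on the right the groups overlap, and 5XFAD mouse 6 is at 1.32%.

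Igf1r, the receptor of insulin-like growth factor 1, did not pass the test in any comparison. The controls were at 3.65, 4.11, 4.59 and 5.01 FPKM and the compound mice at 3.50, 3.96, 3.32, 3.68 and 3.88 FPKM. The group means fell between 3.67 and 4.34 FPKM, and the groups overlapped. The log2 difference of compound from control mice was -0.19 (95% interval -0.49 to 0.11, adjusted p = 0.681). On the FPKM scale Igf1 was below its receptor gene in each of the 9 mice without 5XFAD. Igf1 was above its receptor gene in 5 of 6 5XFAD and 5 of 5 compound mice. FPKM is scaled to transcript length while these libraries hold only 3′ ends, so the order of these genes is approximate.

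Bdnf, which encodes brain-derived neurotrophic factor, was at 22.9, 22.5, 23.9 and 20.6 FPKM in control and 22.8, 22.8, 20.8, 26.0 and 23.8 FPKM in Hdac1 cKO mice. In 5XFAD mice it ranged from 19.4 to 23.6, with a median of 21.1 FPKM. The compound mice were at 25.5, 22.8, 22.9, 32.1 and 20.2 FPKM, so that only compound mouse 4 stood above 26.0. The log2 difference from control was 0.05 in Hdac1 cKO (95% interval -0.16 to 0.25), -0.08 in 5XFAD (-0.28 to 0.13) and 0.12 in compound mice (-0.16 to 0.40), with adjusted p = 0.899, 0.814 and 0.812. These intervals exclude a 1.5-fold change of Bdnf on this scale.

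Ntf3 had lower means with 5XFAD but did not pass the adjusted test. The controls were at 12.1, 10.2, 9.90 and 6.57 FPKM and the Hdac1 cKO mice at 10.1, 9.60, 8.61, 12.8 and 10.3 FPKM. The 5XFAD mice ranged from 3.71 to 10.5 with a median of 6.15 FPKM, and the compound mice were at 6.07, 10.1, 6.21, 3.81 and 7.45 FPKM. Values under the lowest of the 9 mice without 5XFAD (6.57 FPKM) were seen in 3 5XFAD and 3 compound mice, yet every pair of groups overlapped.

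The log2 difference of Ntf3 in compound against Hdac1 cKO mice was -0.59 (SE 0.19, 95% interval -1.0 to -0.18, unadjusted p of 0.00832, adjusted p = 0.225, exact permutation p = 0.0317), which passed the DEG thresholds alone. Without Hdac1 cKO mouse 4 or 5, or compound mouse 1, 3 or 4, it no longer passed them, with values of -0.58 to -0.43. The value was -0.54 in 5XFAD against control (-1.09 to 0.01, adjusted p = 0.477) and -0.49 in compound against control mice (-0.99 to 0.01, adjusted p = 0.482). The comparisons of 5XFAD with control and of compound with Hdac1 cKO mice share no animals. Hdac1 cKO against control differed by 0.09 (-0.26 to 0.44) and compound against 5XFAD by 0.05 (-0.50 to 0.60).

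Ntrk2 encodes TrkB, and its truncated form is the main one in astrocytes. The values were 38.5, 44.5, 39.6 and 40.6 FPKM in control, 37.7, 37.2, 37.7, 38.3 and 41.3 FPKM in Hdac1 cKO, and 40.9, 38.7, 40.0, 43.9 and 44.2 FPKM in compound mice. The 5XFAD mice ranged from 40.7 to 47.6 with a median of 44.7 FPKM. All groups overlapped with control. The log2 differences from control were -0.08 in Hdac1 cKO, 0.12 in 5XFAD and 0.03 in compound mice, with adjusted p-values of 0.75, 0.637 and 0.949. FPKM values per gene do not separate the forms of the transcript.

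Ntrk3, the TrkC gene, was the one member whose Hdac1 cKO and control values did not overlap. The controls were at 35.6, 37.2, 34.0 and 34.2 FPKM, and the Hdac1 cKO mice at 44.3, 42.1, 47.8, 39.8 and 45.8 FPKM. The log2 difference was 0.31 (SE 0.08, 95% interval 0.13 to 0.49), a ratio of 1.25, with an unadjusted p of 0.00293, an adjusted p = 0.186 and an exact permutation p = 0.0159, the smallest 4 against 5 mice allow. It passed neither the adjusted threshold nor the fold change of 1.5. Groups did not overlap in this direction for 2.08% of all 14265 genes tested, beside 1 of the 8 members tested.

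On the 5XFAD background the Ntrk3 values overlapped. The 5XFAD mice ranged from 30.5 to 41.2 with a median of 37.3 FPKM, and the compound mice were at 34.7, 42.0, 38.0, 30.4 and 44.2 FPKM. Compound against 5XFAD mice differed by 0.04 (95% interval -0.20 to 0.28, adjusted p = 0.959). The interaction was -0.27 (-0.56 to 0.02, unadjusted p of 0.0673, adjusted p = 0.584), so a difference of the effect between backgrounds was not shown.

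Sort1 and Vgf did not pass the test in any comparison. Sort1 had group means between 35.1 and 38.5 FPKM and values from 31.2 to 42.5 FPKM over the 20 mice. Its log2 differences from control were 0.12, 0.13 and 0.12 in Hdac1 cKO, 5XFAD and compound mice. Vgf was at 15.9, 16.9, 18.4 and 17.0 FPKM in control and 9.86, 10.9, 19.4, 14.7 and 19.9 FPKM in compound mice, a wider spread that lay on both sides of the control range. Its log2 difference between them was -0.23 (95% interval -0.65 to 0.19, adjusted p = 0.739).

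Ngfr was near the limit of these libraries. Its values are whole multiples of what 1 fragment is worth (within 0.003 of a whole number) and amount to 0 to 9 fragments per hippocampus. It was listed at 0 in control mouse 1, Hdac1 cKO mouse 4 and 5XFAD mouse 4, and was highest, at 0.531 FPKM, in compound mouse 5. It was under the mean of 0.5 FPKM needed for the test. At this depth no difference between groups was detectable.

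Counted together, 0 of the 8 members tested passed the adjusted threshold in Hdac1 cKO against control (background 0.154% of all genes), 0 in 5XFAD against control (0.708%), 1 in compound against control (0.662%, or 0.627% of genes higher), 0 in compound against 5XFAD (0.00698%) and 1 in compound against Hdac1 cKO mice (1.49%, or 1.42% higher). By the DEG thresholds the counts were 0, 1, 1, 0 and 2 members in the same order, and the backgrounds were 3.36%, 2.95%, 4.24%, 1.28% and 3.55%. Lower DEGs, as Ntf3 was, made up 0.613% of the genes in the last. At an unadjusted p under 0.05 there were 1, 1, 1, 0 and 2 members, against backgrounds of 11.7%, 10.7%, 10.5%, 6.61% and 10.3%. The interaction called 0 members and 0 of 14389 genes in limma; 1290 genes (8.97%) and 0 members had an unadjusted p under 0.05. The median log2 difference of the tested members lay between -0.0509 and 0.07, and that of all genes between -0.00962 and -0.000456 in these 5 comparisons. The comparisons with control share the same 4 mice.

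In GFAP+ nuclei the order of the members was different, and the values of the 2 kinds of library are set side by side without a test because the library methods differ. Ntrk2 was highest, at 79.9, 83.0 and 69.1 FPKM in control and 84.7, 75.0, 87.0 and 87.3 FPKM in Hdac1 cKO samples. Sort1 followed at 29.6 ± 2.6 FPKM (SD, n = 3) in control, then Ntrk3 at 20.5 ± 1.28 and Igf1r at 12.4 ± 1.6. Vgf was at 3.83 FPKM and Bdnf at 1.87 FPKM, below Igf1r, whereas in control hippocampus both were above it. Igf1 was at 0.627, 0.276 and 0.619 FPKM in control and 1.24, 0.293, 0.0428 and 1.33 FPKM in Hdac1 cKO samples, and the 7 microglial markers summed to 18.8 to 61.3 FPKM over the 7 samples.

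Ntf3 was listed at 0 in all 3 control samples and in Hdac1 cKO samples 3 and 4, and at 0.0988 and 0.228 FPKM in samples 1 and 2. Ngfr amounted to 1 to 15 fragments. Neither reached the level needed for limma, and the exact permutation test gave p = 0.571 for each. At this depth no difference was detectable. Of the 7 members tested, 0 passed the adjusted threshold (background 0.0133%), 0 were DEGs (background 2.58%) and 0 had an unadjusted p under 0.05 (background 4.7%). The log2 differences ran from -0.19 (Vgf) to 0.12 (Igf1), and that of Ntrk2 was 0.11 (95% interval -0.19 to 0.41, adjusted p = 0.984). With 3 against 4 samples the exact permutation test cannot go below 0.0571.

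**Figure D4:**
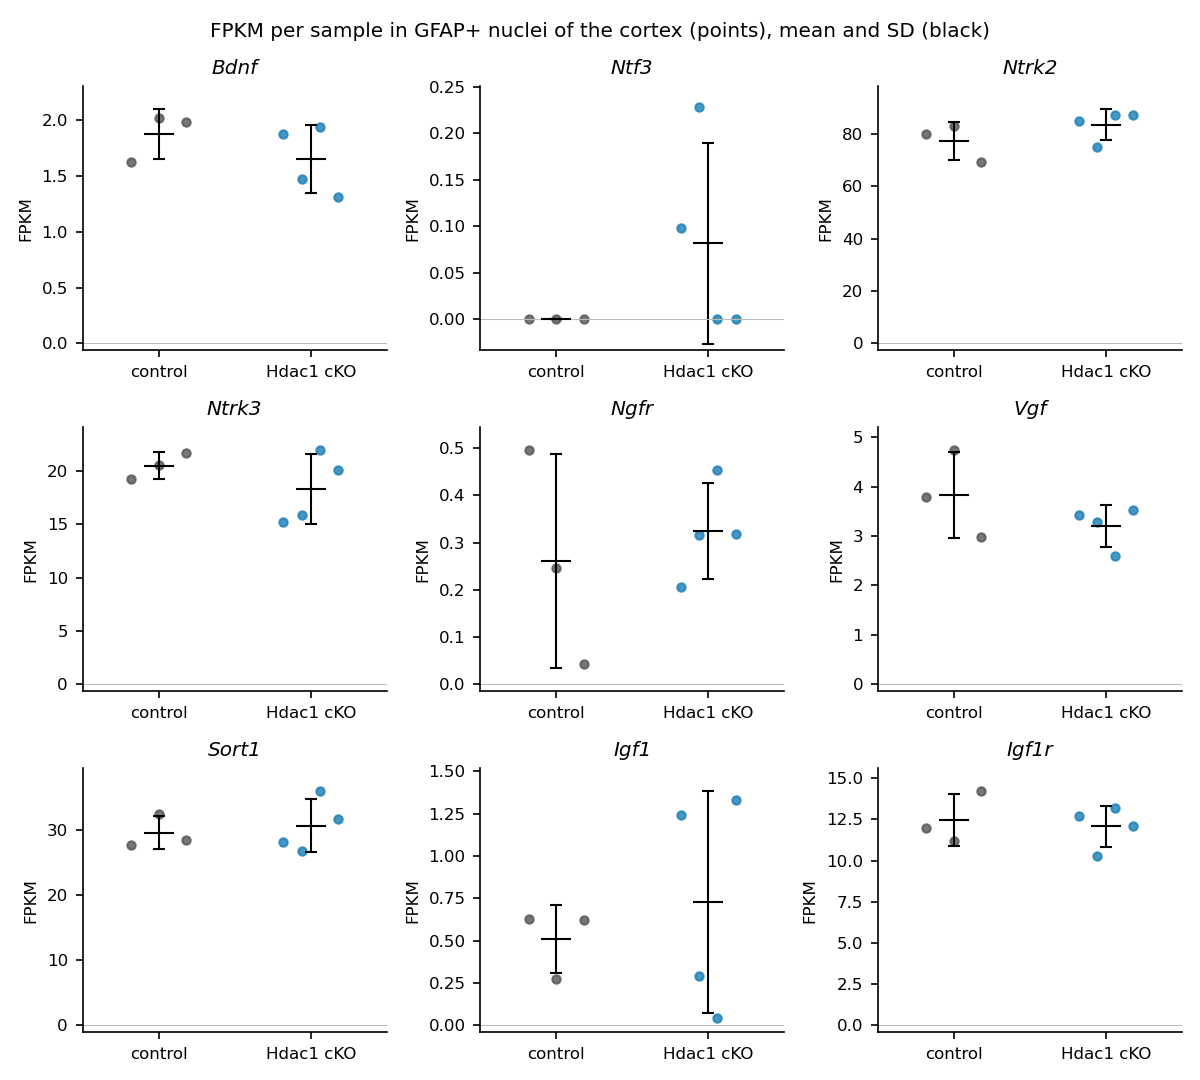
FPKM (y axis) of the 9 members in GFAP+ nuclei of the cortex, control and Hdac1 cKO (x axis), with 1 point per sample and the mean and SD in black. The groups overlap for every member, and Ntf3 is at 0 in 5 of 7 samples.

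The other genes of these pathways were read from fixed lists. Among 15 further ligands, receptors and processing genes of the neurotrophins, 0 of the 12 or 13 tested in each comparison passed the adjusted threshold. The DEG thresholds were passed by 1 of them, Pcsk1, a protease that cuts neuropeptide precursors, which was lower in 5XFAD against control (-0.633, adjusted p = 0.413, background of lower DEGs 1.23%) and compound against control mice and higher in GFAP+ nuclei (0.733, adjusted p = 0.984, background of higher DEGs 1.24%). It ranged from 2.80 to 9.15 FPKM in the 4 controls and from 1.67 to 2.84 FPKM in the 5 compound mice, a log2 difference of -0.743 with an adjusted p = 0.335, or -1.27 (0.235) with the choroid plexus score as a covariate. Control mouse 1 had the highest Pcsk1 value, 9.15 FPKM. Without it the difference was -0.354 (adjusted p = 0.659) in 5XFAD against control and -0.465 (0.522) in compound against control mice, neither of which passed the DEG thresholds. In GFAP+ nuclei Pcsk1 was at 0 to 0.146 FPKM in control and 0.11 to 1.52 FPKM in Hdac1 cKO samples. With 0.1 added to FPKM in place of 1, the difference there was 2.27 and no longer passed the DEG thresholds. Among 22 genes of neurotrophin receptor signalling, 0 of 21 tested in hippocampus and 0 of 22 in GFAP+ nuclei passed the adjusted or the DEG thresholds. The 2 with the largest differences in 5XFAD against control mice were Shc3, an adaptor of Trk receptors (0.581, adjusted p = 0.352), and Plcg2, a phospholipase of immune cells (0.551, adjusted p = 0.375).

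The insulin-like growth factor list held the calls outside the members. Of its 20 genes 13 were tested in hippocampus, and 1, Igfbp5, passed the adjusted threshold in 5XFAD against control, compound against control and compound against Hdac1 cKO mice (backgrounds 0.708%, 0.662% and 1.49%). Beside it the DEG thresholds were passed as lower by Igf2 and Igfbp2 in Hdac1 cKO against control (background of lower DEGs 2.87%), Igfbp2 in compound against control (-1.57, background 2.02%) and Irs2 in GFAP+ nuclei (-0.596, background 1.34%), and as higher by Igfbp7 in the interaction (0.636, background of higher DEGs 2.69%). Their adjusted p-values ran from 0.133 to 0.984. Igfbp5 encodes a secreted protein that binds insulin-like growth factors. It was at 15.5, 14.5, 11.4 and 14.7 FPKM in control and 14.1, 10.1, 11.9, 16 and 13.8 FPKM in Hdac1 cKO mice. The 5XFAD mice ranged from 18.9 to 30.9 with a median of 23.5 FPKM, and the compound mice were at 28.4, 31.1, 24.0, 48.4 and 25.8 FPKM. All 11 mice with 5XFAD were above all 9 without it. Groups were apart in this direction for 1.92% of all genes in 5XFAD against control, 2.75% in compound against control and 2.44% in compound against Hdac1 cKO mice.

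Igfbp5 rose by 0.745 in 5XFAD against control (SE 0.138, adjusted p = 0.022), by 1.08 in compound against control (SE 0.183, adjusted p = 0.0208) and by 1.17 in compound against Hdac1 cKO mice (SE 0.175, adjusted p = 0.00282). The first call was lost without control mouse 2, 3 or 4 or 5XFAD mouse 4 or 5 (highest adjusted p = 0.0763), and the second without control mouse 2, 3 or 4 or compound mouse 2 (highest 0.0753). Both were also lost in limma without its trend and robust options (0.054 and 0.0556). With the replicate numbers as a block the first was lost as well (0.803, adjusted p = 0.165). The third held in all of these. Hdac1 cKO and control mice overlapped. In GFAP+ nuclei Igfbp5 was at 23.5 to 26.6 FPKM in control and 24.7 to 33.9 FPKM in Hdac1 cKO samples.

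The sums of the astrocyte and of the 7 microglial markers moved with Igfbp5 in hippocampus. The microglial sum was 177.5 FPKM or more in each mouse with 5XFAD and 121.7 FPKM or less in each mouse without. Compound mouse 4, with the highest Igfbp5 value, also had the highest sum of the 6 oligodendrocyte markers (1890 FPKM, against 1154 to 1358 FPKM in the other compound mice). The 6 astrocyte markers summed to 362.9 to 424.6 FPKM in control, 371.4 to 443.9 in Hdac1 cKO, 439 to 501.5 in 5XFAD and 511.3 to 613.6 in compound mice, and none was at 0 throughout a group. Of these 6, 1 rose in 5XFAD against control, 2 in compound against control and 2 in compound against Hdac1 cKO mice. Their median log2 difference was 0.139, 0.297 and 0.261 in this order. The lowest values were -0.172 (Gja1), -0.00144 (Slc1a3) and -0.036 (Slc1a2). Gfap, the intermediate filament of reactive astrocytes, rose by 1.90, 2.10 and 1.97 in these comparisons (adjusted p = 1.86e-06, 0.000224 and 4.49e-05). The part of these cells in the rise of Igfbp5 was not tested.

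Igf2, the other ligand of the family, and Igfbp2 had the largest differences of this list in Hdac1 cKO against control mice, and both tended to be higher in mice with higher choroid plexus markers. Igf2 was at 5.45, 43.8, 53.3 and 33.8 FPKM in control mice and at 4.24 to 9.31 FPKM in Hdac1 cKO mice, in which the summed markers were at 586.1 to 20350 and 59.7 to 1626 FPKM. The log2 difference was -1.79 (adjusted p = 0.323) and 0.581 (adjusted p = 0.624) with the marker score as a covariate. For Igfbp2 it was -1.76 (adjusted p = 0.133) and -0.224 (0.804). In this comparison the score averaged 4.823 (SD 1.665) in control and 1.703 (SD 0.6716) in Hdac1 cKO mice. With it as a covariate the calls over all genes went from 22 to 0. Group and plexus content are therefore hard to tell apart in that fit. The 4 tested markers of meningeal fibroblasts were also lower in Hdac1 cKO against control mice, with a median of -0.282. With the covariate their median was -0.197, and Col1a2 was at 0.256. None passed the adjusted threshold, and 1, Slc6a13, was a lower DEG (-0.712, or -1.16 with the covariate, background 2.87%). Their part in Igf2 and Igfbp2 was not tested. With the same covariate, the Igfbp5 difference was 0.691 in 5XFAD against control mice (adjusted p = 0.104), 0.978 in compound against control mice (0.276) and 1.17 in compound against Hdac1 cKO mice (0.00655). Igf1 remained past the threshold in compound against Hdac1 cKO mice (adjusted p = 0.00556).

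**Figure D5:**
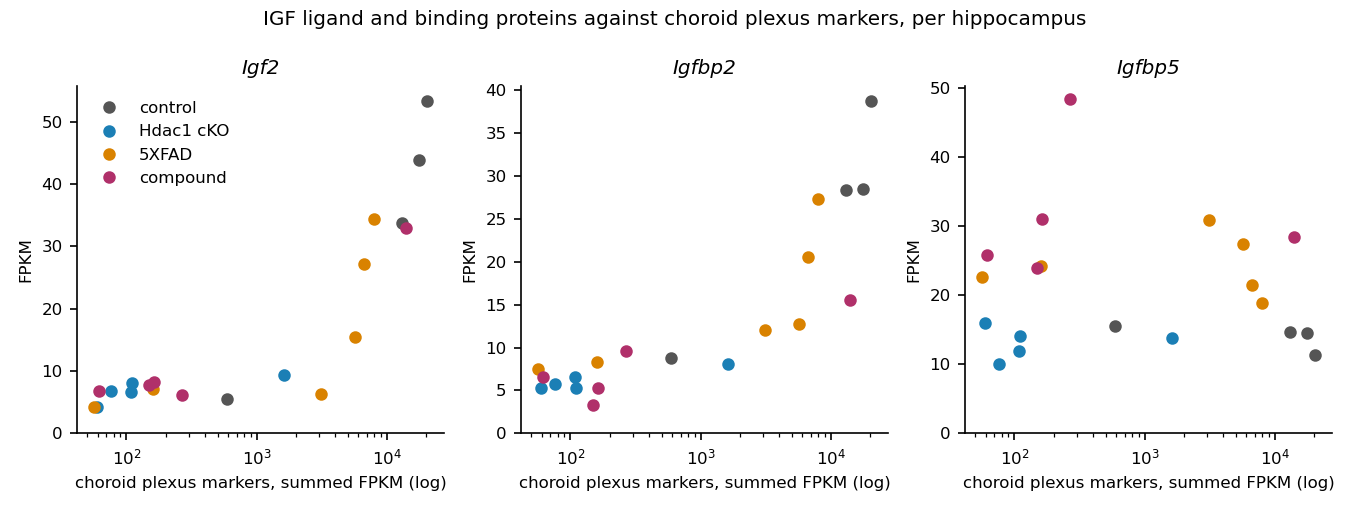
FPKM (y axis) of Igf2, Igfbp2 and Igfbp5 against the summed FPKM of 7 choroid plexus markers (x axis, log scale), 1 point per hippocampus, coloured by group. Igf2 and Igfbp2 are highest in control mouse 3, which has the highest marker sum, while 5XFAD mouse 1, with a sum of 3091 FPKM, has Igf2 at 6.34 FPKM, and Igfbp5 is at 18.9 FPKM or more in all mice with 5XFAD.

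Bdnf and Vgf belong to the genes that neuronal activity induces, so 19 such genes were read beside them. In hippocampus 18 were tested, and 0 passed the adjusted threshold in any comparison. The DEG thresholds were passed in Hdac1 cKO against control by 2, both higher (background of higher DEGs 0.498%), Nr4a1 and Junb, transcription factors of the early response. Nr4a1 was at 4.05, 2.09, 2.04 and 2.76 FPKM in control and 4.40, 6.98, 8.36, 7.37 and 5.34 FPKM in Hdac1 cKO mice, without overlap, a log2 difference of 1.01 (adjusted p = 0.078). With the choroid plexus score as a covariate it was 0.396, in a fit where the score is hard to tell apart from the group. Junb was at 5.43 to 7.95 FPKM in control and 8.1 to 14.2 FPKM in Hdac1 cKO mice, also without overlap. Its log2 difference was 0.639 (adjusted p = 0.155). Groups were apart in this direction for 2.08% of all genes tested. In compound against Hdac1 cKO mice 2 of the 18 were lower DEGs (background 0.613%), Nr4a1 (-0.709, adjusted p = 0.133) and the synaptic gene Arc (-0.60, adjusted p = 0.312). In the interaction 4 of the 18 passed the DEG thresholds as lower (background 1.38% lower and 4.07% in either direction), Junb (-0.912), Nr4a1 (-0.882), Egr4 (-0.758) and Arc (-0.603), with adjusted p = 0.298, 0.385, 0.433 and 0.549. In Hdac1 cKO against control Bdnf differed by 0.05 and Vgf by 0.11. The median log2 difference of the list was 0.182 in Hdac1 cKO against control and -0.259 in compound against Hdac1 cKO mice. With the choroid plexus score as a covariate these medians were 0.0632 and -0.279. In 5XFAD and compound against control mice, without the covariate, the median was -0.0056 and -0.0555.

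Genes that varied most like each member were found after centring every value on its group mean over the 20 hippocampi, among 14389 genes. Values of a mouse come from 1 library, with its depth and its tissue make-up, so the coefficients are descriptions. Vgf had the closest companions, led by Ccdc92 (Pearson r = 0.898, Spearman rho = 0.902). Ntrk3 was most like E130309D14Rik (r = 0.826), Ntrk2 most like Ccna2 (0.822), Igf1r most like Ehmt2 (0.809) and Ntf3 most like Egfl6 (0.794). For Igf1 the leading gene was Baalc (r = 0.781), for Sort1 Ina (0.760) and for Bdnf Aqp4, the water channel of astrocytes (0.758, with rho = 0.653). Bdnf also followed the summary score of the astrocyte markers, of which Aqp4 is one (r = 0.832, rho = 0.779), and had r = 0.658 (rho = 0.358) with the score of the microglial, 0.718 (0.472) with that of the amyloid-associated microglial, 0.589 (0.502) with that of the mural cell and -0.554 (-0.511) with that of the neuronal markers. Igf1 had r = 0.346 (rho = 0.408) with the microglial and 0.351 (0.271) with the amyloid-associated microglial score. Compound mouse 4 had the highest Bdnf and Igf1 values and the highest microglial and astrocyte marker sums of the 20 hippocampi. No member was among the 3 leading genes of another, and within groups Bdnf and its receptor gene Ntrk2 had r = 0.0564, Ntf3 and Ntrk3 r = 0.257, and Igf1 and Igf1r r = -0.166.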

How the data were processed

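The authors deposited FPKM values, 1 per gene and library. Hippocampal 3′ Digital Gene Expression reads were aligned with TopHat and quantified with Cufflinks 2.0.0 on mm9 (submitters' processing notes). GFAP+ nuclei were amplified with SMART-Seq v4. The steps for those libraries are not given separately. Of 34 samples listed, 27 were analysed; 6 ChIP-seq samples and GFAP+ control 2 were not. The files hold no fragment counts, so no count model was used.

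Groups came from the sample labels. Values were put on the log2(FPKM + 1) scale. Genes whose average in the compared samples reached 0.5 FPKM were tested with limma 3.58.1 (R 4.3.3, trend and robust options, only the groups compared), with Benjamini-Hochberg adjustment over all genes tested. "Rose" and "fell" mean an adjusted p under 0.05. Fold changes on this scale understate changes of low genes. Single members were compared by two-sided exact permutation (scipy 1.17.1). P-values set a group difference against the variation between these mice. On simulated data with 200 genes changed by 1.5 on the log2 scale, limma recovered 93.5% for Hdac1 cKO against control (14255 genes), 92.0% for compound against control (14350 genes) and 80.5% for GFAP+ nuclei (15103 genes). The changed genes were drawn only from those above a minimum mean level, with independent normal noise. The largest difference of a member was 1.34 (Igf1, compound against control). Recovery of smaller changes, or of lower genes, was not simulated.

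Members, lists and tests were chosen with earlier results of these data known. The genes named are the members, Hdac1, and from each list the genes called and the 2 with the largest differences in a comparison, of which only some are printed. Others are named as markers or by their likeness to a member. A microglial marker of the list is not reported here and was left out of its sums, scores and counts. Gene positions were read from gencode vM1 of mm9. Alternatives were another pseudocount, filter or scaling, limma without its options, all 4 groups in 1 fit, a replicate block and each sample left out, and, chosen after seeing the data, a choroid plexus score as a covariate.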

Additional observations from a re-analysis of the deposited data

Results flagged for a closer look

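Of 45 sets of a member and a group with 4 samples or more, 1 had a sample far from the others by Dixon's test. Ntrk2 in Hdac1 cKO mouse 5 was at 41.3 FPKM, and the other 4 mice of that group were between 37.2 and 38.3 FPKM. Chance alone places about 1 in 20 such sets there. That value is inside the control range of 38.5 to 44.5 FPKM.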

How the results depend on the processing

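The number of members past the adjusted threshold in 5XFAD against control mice, 0, became 1 with the replicate block and 1 with all 4 groups in 1 fit. Leaving out 1 mouse at a time gave 0 to 1. In compound against control mice the number, 1, became 0 with the replicate block, 0 with the choroid plexus score as a covariate (chosen after seeing the data), and 0 to 1 with 1 mouse left out. By the DEG thresholds, leaving out 1 mouse gave 1 to 2 members in 5XFAD against control, 1 to 2 in compound against control and 1 to 2 in compound against Hdac1 cKO mice, where the covariate gave 1. Igf1 accounts for the changes by the adjusted threshold. Its adjusted p ranged from 0.00497 to 0.26 over the alternatives in 5XFAD against control, from 0.00239 to 0.205 in compound against control and from 0.00099 to 0.0169 in compound against Hdac1 cKO mice. The log2 fold change stayed between 0.90 and 1.67 in these comparisons. With the replicate block Igf1 was at 1.26 (adjusted p = 0.0481) in 5XFAD and 1.40 (0.0761) in compound against control mice. Igfbp5 was at 0.803 (0.165) with the block in 5XFAD against control mice, past the threshold without it. The causes were not tested. The numbers do not pair the mice: over 25 pairs of groups and numbers the correlation of same-numbered mice ran from -0.11 to 0.078. Igf1 kept its sign under each alternative in the comparisons in which it was called. Of 1065 values under an alternative, 54 had another sign, each in a comparison in which that member was not called. These include Igf1 in Hdac1 cKO against control mice (5 alternatives) and in GFAP+ nuclei (3). Over all alternatives the median log2 difference of all genes moved by at most 0.0383. Depth limits Ngfr in both sets and Ntf3 in GFAP+ nuclei.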
